A study of Homo sapiens with 12 samples.

Results

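The genes followed here belong to the neural crest programme: the 6 DLX homeobox genes (DLX1 to DLX6), the paired-box gene PAX3, the endothelin receptor gene EDNRB, the ETS-family gene ETS1 and NGFR, which encodes the low-affinity neurotrophin receptor. The array's annotation assigns each of them at least 1 probe set, and all 10 of the 10 were among the 19775 genes tested. Together they are read by 22 of the 54675 probe sets, none of which is shared with another gene symbol. The cells were H9, an established embryonic stem cell line, at passages 28 to 35. In every group the cells held a Tet-on construct from which doxycycline (Dox) switches on GCNF, the orphan nuclear receptor encoded by NR6A1. There were 12 arrays, 3 for each of 4 groups. Undifferentiated cells in mTeSR on a coated matrix were either untreated (d0) or grown 4 days with Dox at 1 µg/ml (d0 with Dox). Differentiating cells, in DMEM/F12 with 15% serum, received for 6 days either retinoic acid at 1 µM (RA-labelled arrays) or Dox at 1 µg/ml (Dox-labelled arrays). No cells without the construct and no day 6 cells without RA or Dox were analysed here, so effects of Dox, GCNF, serum and time cannot be told apart where they coincide. The design asks what GCNF regulates, by comparing d0 with and without Dox and the 2 day 6 groups with each other.

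The neural crest arises at the border of the neural plate and the surface ectoderm and gives rise to peripheral neurons and glia, pigment cells and much of the facial skeleton. BMP, WNT and FGF signals first switch on border genes such as PAX3, TFAP2A, MSX and DLX5, and these act ahead of crest specifiers such as SNAI2, SOX9, FOXD3 and SOX10. DLX factors, homologues of fly Distal-less, lie in the genome as convergent neighbouring pairs and later pattern the jaw, with DLX5 and DLX6 acting in its lower part, while DLX1 and DLX2 also drive forebrain interneurons. DLX3 and DLX4 are known from epidermis and placenta. ETS1 acts in cranial crest and in endothelium, EDNRB in migrating crest cells that become enteric neurons and melanocytes, and NGFR marks migrating crest. Undifferentiated human embryonic stem cells are not crest cells, and none of the labels names a crest cell type.

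Promoters of PAX3, EDNRB and DLX2 are shown as examples among the genes with a RefSeq promoter entry. PAX3 and EDNRB rose with Dox at d0, and DLX2 rose from d0 to day 6 under both labels. Nuclear receptors of the GCNF kind are known to bind repeats of AGGTCA. The sequences are RefSeq's for GRCh38.p14, which hold 5 of the 10 genes (DLX1, DLX2, DLX6, PAX3 and EDNRB, the last with 2 starts), and are printed 5′ to 3′ on the gene's strand for the 250 bases before the start. All 3 lie on the minus strand, PAX3 at chr2:222298999-222299248, DLX2 at chr2:172102901-172103150 and the upstream EDNRB start at chr13:77919683-77919932. Capitals mark the hexamer AGGTCA, its variant AGTTCA and the CCAAT box on either strand.
PAX3: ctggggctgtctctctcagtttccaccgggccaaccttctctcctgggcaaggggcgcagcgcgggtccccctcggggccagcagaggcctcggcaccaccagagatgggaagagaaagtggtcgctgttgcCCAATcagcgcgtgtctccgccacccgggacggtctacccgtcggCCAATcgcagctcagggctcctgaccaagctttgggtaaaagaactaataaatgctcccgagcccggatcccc
DLX2: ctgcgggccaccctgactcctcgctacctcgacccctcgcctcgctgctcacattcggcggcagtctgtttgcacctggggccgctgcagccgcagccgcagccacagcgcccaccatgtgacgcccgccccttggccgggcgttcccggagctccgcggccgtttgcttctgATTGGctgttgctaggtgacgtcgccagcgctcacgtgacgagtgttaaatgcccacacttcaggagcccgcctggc
EDNRB: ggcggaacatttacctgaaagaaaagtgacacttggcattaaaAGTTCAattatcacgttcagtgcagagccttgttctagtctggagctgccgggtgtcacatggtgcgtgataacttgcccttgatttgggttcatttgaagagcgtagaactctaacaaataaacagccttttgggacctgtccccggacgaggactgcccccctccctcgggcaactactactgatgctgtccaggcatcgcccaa
The PAX3 window holds CCAAT at 2 places and the DLX2 window holds it once, read on the opposite strand. In the EDNRB window the capitals are AGTTCA.

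Over the 6 windows of these 5 genes, AGGTCA was found in 1 (DLX1), against 12.1% of 35116 promoters of the same length, and AGTTCA in 2, both of EDNRB, against 8.80%. The longer TCAAGGTCA, which contains AGGTCA, was in 0 of the 6 and in 0.319% of all promoters, and the unspaced direct repeat of the hexamer in 0 and 0.0171%. CCAAT was in 4 of the 6, those of DLX1, DLX2, DLX6 and PAX3, against 32.0%, and the homeobox core TAATTA in 0, against 4.35%. The DLX and PAX3 windows were rich in CpG: 23 CpGs for DLX1, 25 each for DLX2 and DLX6 and 17 for PAX3, where the median promoter had 11. EDNRB had 9 and 16 at its starts. A match describes letters in a window and is not a measured binding site. By the order of RefSeq genes, no protein-coding gene lies between DLX1 and DLX2, DLX3 and DLX4 or DLX5 and DLX6.

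The arrays were scaled alike, with a median signal of 64.2 to 78.0, and arrays of a group correlated at r = 0.980 to 0.982 in log2 signal. The number of arrays limits the precision, and since the titles say biological replicate but not whether cultures were separate, the p-values cover only the spread among these arrays. NR6A1, the gene the construct expresses, was higher with Dox at d0, but at day 6 some of its probe sets and a retinoic acid target went against the labels. It read, by 207742_s_at, 26.8 ± 17.6 at d0 and 615 ± 40.8 with Dox, but 336 ± 70.9 on the RA-labelled and 29.2 ± 13.7 on the Dox-labelled day 6 arrays. Of its 7 probe sets, 3 were lower and 3 higher on Dox-labelled than on RA-labelled arrays, past the threshold over all probe sets. The brightest, 228894_at, went with the labels, at 528 ± 37.8 on RA-labelled and 1008.5 ± 223 on Dox-labelled arrays. Yet it read 1457 ± 115 at d0 and 2868.5 ± 270 with Dox, so its Dox-labelled arrays lay below untreated d0 (log2 fold change -0.54). CYP26A1, which retinoic acid is known to induce strongly, read 271 ± 37.0 on the RA-labelled and 29594 ± 1005 on the Dox-labelled arrays. The groups are therefore named only by their labels, and every direction between the 2 day 6 groups rests on them. Whether the 2 labels were exchanged was not tested. The 3′ to 5′ ratio of ACTB, a sign of RNA quality, also moved with the groups, at 3.24 ± 0.139, 3.86 ± 0.0111, 2.59 ± 0.290 and 2.33 ± 0.0580 for d0, d0 with Dox, RA-labelled and Dox-labelled arrays, and its part in the results was not tested.

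Signals below are the deposited linear intensities, in the order of replicates 1, 2 and 3, with mean ± SD (n = 3). Log2 fold changes ± SE are differences of group means of log2(signal + 16), and "rose" and "fell" are used past an adjusted p of 0.05 from limma with Benjamini-Hochberg adjustment over all 19775 genes. Each gene is read from its brightest probe set. In these bulk arrays a change in the share of a cell type and a change in RNA per cell cannot be told apart.

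Dox at d0 raised EDNRB, PAX3 and DLX5 and lowered ETS1, while the other 6 genes did not pass the test. That is 4 of 10 genes called, where 12.9% of all genes were, 7.75% higher and 5.16% lower. Treated and untreated arrays were fully separate for 5 of 10 genes and for 31.5% of all genes, and the median log2 fold change was 0.61 over the 10 and 0.03 over all genes. Between the day 6 groups, DLX6, DLX5, NGFR, DLX2 and DLX3 were higher on Dox-labelled arrays and PAX3 lower, 6 of 10 against 25.9% of all genes (13.7% higher, 12.2% lower), with medians of 0.93 over the 10 and 0.00 over all genes, and 8 of 10 without overlap against 41.6%. From d0 to RA-labelled arrays 5 rose and 2 fell, 7 of 10 against 50.5% of all genes (25.3% higher, 25.2% lower), with 7 of 10 not overlapping against 56.3%. From d0 to Dox-labelled arrays 7 rose and 1 fell, 8 of 10 against 48.5% (24.6% higher, 23.8% lower), with 9 of 10 not overlapping against 56%. These last 2 comparisons share the d0 arrays. Set against d0 with Dox, 7 genes were higher and 2 lower on Dox-labelled arrays, where 22.2% of all genes were higher and 23.9% lower (46.1% called), and 9 of 10 did not overlap against 55.7%. On RA-labelled arrays 3 were higher and 2 lower, where 23% and 25.3% of all genes were (48.3% called), and 7 of 10 did not overlap against 55.8%. Both share the arrays of d0 with Dox. The 10 genes were chosen with earlier results of these data known, so these counts are no test of the set.

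**Figure D1:**
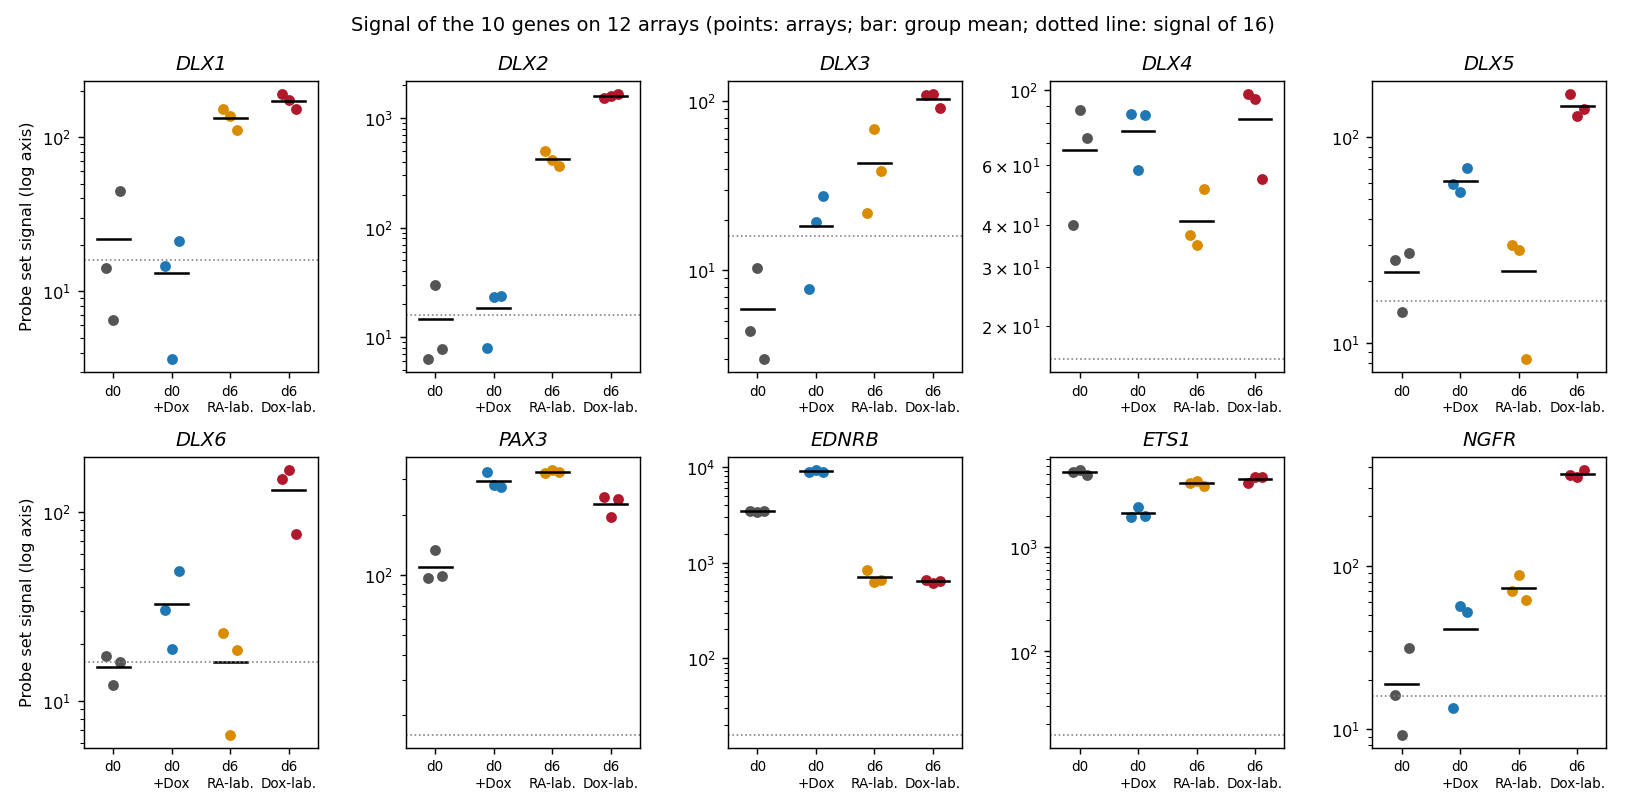
Deposited signal of each gene on a log axis, with a panel per gene, a point per array, a bar at each group mean and a dotted line at a signal of 16. EDNRB is highest and ETS1 lowest in d0 with Dox, while DLX2, DLX5, DLX6 and NGFR are highest on Dox-labelled day 6 arrays.

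EDNRB, the receptor for endothelins on migrating crest cells, rose with Dox at d0 and fell at day 6 under both labels. At d0 it read 3477, 3388 and 3477 (3447 ± 51.4). With Dox it read 8743, 9266 and 8849 (8953 ± 277). At day 6 it read 841, 621 and 652 (704 ± 119) on RA-labelled and 658, 608 and 641 (636 ± 25.8) on Dox-labelled arrays. All Dox-treated d0 arrays lay above all untreated ones, both lay above every day 6 array, and the 2 day 6 groups overlapped. The rise was 1.37 ± 0.10 on the log2 scale, 2.59-fold, with limma's adjusted p of 3.08e-05. The fall from d0 was -2.28 ± 0.10 to RA-labelled arrays (3.86e-08) and -2.41 ± 0.10 to Dox-labelled arrays (3.39e-08), and between these the difference was -0.13 ± 0.10 (0.413). The order of levels was thus Dox-labelled, RA-labelled, d0 and d0 with Dox, of which only the first pair of neighbours did not pass the test. Markers of pluripotent cells fell with EDNRB at day 6, 8 of 8 measured against d0 under either label, and with Dox at d0 1 was higher and 4 were lower. Their summed signal was 99720 to 111980 at d0, 86300 to 89459 with Dox, 16930 to 19244 on RA-labelled and 15774 to 16580 on Dox-labelled arrays, and their part in the EDNRB values was not tested.

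All 3 EDNRB probe sets gave that pattern. With Dox at d0 the probe set 204273_at went from 834 ± 84.4 to 3057 ± 69.5 and 206701_x_at from 1201 ± 67.8 to 3354 ± 54.8, and on RA-labelled arrays they read 171 ± 47.5 and 181 ± 24.8. Among 6 other genes of the endothelin pathway, 2 rose with Dox at d0, where 7.75% of all genes did. EDN1, a ligand, went up by 0.62 ± 0.07 (adjusted p = 0.000431, limma) and ECEL1, a protease related to the endothelin-converting enzymes, by 1.73 ± 0.32 (0.00681). EDN3, the ligand that acts through EDNRB in crest, averaged 9.56 to 22.01 in the 4 groups and did not pass in any of the 6 comparisons; it was singled out after its values were seen. At day 6, EDN1 and the converting enzyme ECE1 rose against d0, to RA-labelled arrays by 1.28 ± 0.07 and 1.505 ± 0.15, where EDNRB itself fell.

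PAX3, a border gene that specifies crest and dorsal neural tube, rose with Dox at d0 and stood above d0 in both day 6 groups. At d0 it read 97.0, 132.8 and 98.4 (109 ± 20.3), and with Dox 327, 280.4 and 276 (295 ± 28.3). On RA-labelled arrays it read 323, 334 and 328 (328 ± 5.74), and on Dox-labelled arrays 244, 196 and 241 (227 ± 27.0). The 3 untreated arrays were the lowest of the 12 with no overlap, and the Dox-labelled arrays lay between them and both other groups. With Dox at d0 the log2 fold change was 1.32 ± 0.12, 2.49-fold (adjusted p = 0.000120, limma). Against d0 it was 1.47 ± 0.12 on RA-labelled and 0.96 ± 0.12 on Dox-labelled arrays.

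PAX3 was lower on Dox-labelled than on RA-labelled arrays by -0.51 ± 0.12 (adjusted p = 0.0132, limma), a call lost without replicate 2 of the Dox-labelled arrays, at -0.41, and with the mean of all 4 PAX3 probe sets, at -0.084. The fall from d0 with Dox to Dox-labelled arrays, -0.36 ± 0.12 (0.0395), was lost in 8 of the 12 fits that leave out an array, whose values ran from -0.41 to -0.26, when arrays were centred on their median, at -0.21, and under quantile normalization, at -0.31. It was also lost with the mean of all PAX3 probe sets, at -0.29, and at the same -0.36 with only these 6 arrays, a trended robust variance or the replicate number as a block. The other 3 PAX3 probe sets were dim. With Dox at d0 their means went from 12.1 ± 7.73 to 29.2 ± 4.01 (207679_at), from 21.9 ± 17.6 to 29.5 ± 20.0 (207680_x_at) and from 2.72 ± 0.714 to 26.1 ± 13.1 (216059_at), none past the threshold over all probe sets. With the mean of all 4 probe sets, the bright one included, the PAX3 values were 0.86 for Dox at d0, 0.65 for RA-labelled and 0.57 for Dox-labelled arrays against d0.

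ETS1, a transcription factor of cranial crest and endothelium, fell with Dox at d0 and, by its brightest probe set, stood near its d0 level at day 6. It read 5266, 5490 and 4932 at d0 (5229 ± 281) and 1951, 2413 and 1978 with Dox (2114 ± 260). At day 6 it read 4105, 4300.2 and 3829 on RA-labelled (4078 ± 237) and 4110, 4661 and 4649 on Dox-labelled arrays (4473 ± 315). The 3 arrays of d0 with Dox were below all 9 others. The fall was -1.31 ± 0.10, 2.47-fold (adjusted p = 3.11e-05, limma). From d0 to RA-labelled arrays it fell by 0.36 ± 0.10 (0.0118), a call lost under median centring, at -0.27. From d0 to Dox-labelled arrays the difference was -0.23 ± 0.10 (0.0885). At the same -0.23, ETS1 passed there without replicate 2 of d0 with Dox, with a trended robust variance and with the filter on dim genes. From d0 with Dox it rose to both day 6 groups, by 0.95 ± 0.10 and 1.08 ± 0.10.

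All 3 ETS1 probe sets were lower with Dox at d0, of which 214447_at did not pass over all probe sets. The probe set 1555355_a_at went from 525 ± 57.8 to 178 ± 14.2 and 214447_at from 130.3 ± 17.6 to 84.3 ± 10.03. They gave a deeper fall at day 6: with the mean of all ETS1 probe sets the values against d0 were -0.65 on RA-labelled and -0.55 on Dox-labelled arrays, both past the threshold. With that mean, the rises from d0 with Dox to day 6 were 0.46 and 0.55. The probe set 214447_at did not rise there, at -0.24 on RA-labelled and -0.15 on Dox-labelled arrays. Among 20 other ETS-family genes, 1 rose and 2 fell with Dox at d0, where 7.75% and 5.16% of all genes did. ETS2, the closest relative of ETS1, fell by 1.38 ± 0.08, ETV5 fell by 0.40 ± 0.11 and FLI1, an endothelial and blood factor, rose by 0.93 ± 0.11. Between the day 6 groups 3 were higher and 3 lower on Dox-labelled arrays, where 13.7% and 12.2% of all genes were, with ELF3, an epithelial factor, at 1.74 ± 0.23.

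DLX2, a homeobox gene of forebrain and branchial arches, rose at day 6 under both labels. It read 6.32, 29.6 and 7.76 at d0 (14.6 ± 13.0) and 7.91, 23.4 and 23.5 with Dox (18.3 ± 8.97), near the floor of the array. On RA-labelled arrays it read 497, 412 and 362 (424 ± 68.2). On Dox-labelled arrays it read 1531, 1591 and 1651 (1591 ± 60.2). No day 6 array came near a d0 array, and the 2 day 6 groups did not overlap. Against d0 the changes were 3.91 ± 0.28 on RA-labelled (adjusted p = 9.11e-07, limma) and 5.80 ± 0.28 on Dox-labelled arrays (7.57e-08), and between the labels 1.88 ± 0.28, 3.68-fold (0.000775). With Dox at d0 the difference was 0.21 ± 0.28 (0.711).

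A second DLX2 probe set, 215685_s_at, read 31.0 ± 23.1, 24.97 ± 30.8, 21.1 ± 6.70 and 23.9 ± 15.5 in d0, d0 with Dox, RA-labelled and Dox-labelled arrays, with overlapping groups throughout. Averaged with it, the DLX2 changes were 1.85 and 2.81 against d0, and the difference between the labels, 0.96, no longer passed. DLX1, the neighbour of DLX2 and its partner in forebrain and arch, also rose at day 6. It read 14.2, 6.55 and 44.4 at d0 (21.7 ± 20.0), 14.7, 3.64 and 21.2 with Dox (13.2 ± 8.88), 152, 136 and 112 on RA-labelled (133 ± 20.1) and 189.9, 175 and 153 on Dox-labelled arrays (173 ± 18.6). Both day 6 groups lay above every d0 array. The rises from d0 were 2.10 ± 0.34 (0.000388) and 2.45 ± 0.34 (0.000147), and the difference between the labels was 0.34 ± 0.34 (0.532), although their arrays did not overlap. A second DLX1 probe set, 1560100_at, stayed between 10.7 ± 2.95 and 27.8 ± 17.8 in mean, and with both averaged the rises were 0.86 and 1.35.

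DLX5, a border gene and the lower-jaw factor, was the only DLX gene that passed with Dox at d0. Its level was highest on Dox-labelled day 6 arrays, which differ from d0 with Dox also in medium, serum and time. It read 25.2, 14.2 and 27.2 at d0 (22.2 ± 7.01) and 59.4, 54.0 and 70.6 with Dox (61.3 ± 8.46). At day 6 it read 30.1, 28.4 and 8.36 on RA-labelled (22.3 ± 12.1) and 162, 127 and 138 on Dox-labelled arrays (143 ± 17.8). Arrays of d0 with Dox lay above those of d0, the Dox-labelled arrays lay above all others, and RA-labelled arrays overlapped d0. With Dox at d0 the log2 fold change was 1.03 ± 0.24 (adjusted p = 0.0189, limma). The call was lost without replicate 2 of d0 (0.87), replicate 1 (1.04) or replicate 3 (0.95) of d0 with Dox, and with a pseudocount of 1 (1.47). Between the labels at day 6 it was 2.10 ± 0.24, 4.29-fold (0.000133), and from d0 to RA-labelled arrays -0.036 ± 0.24 (0.924). Set against d0 with Dox, RA-labelled arrays were lower by -1.07 ± 0.24 and Dox-labelled arrays higher by 1.04 ± 0.24.

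DLX6, the neighbour of DLX5, rose on Dox-labelled arrays as well. It read 17.3, 12.1 and 15.96 at d0 (15.1 ± 2.68), 30.4, 18.9 and 48.4 with Dox (32.5 ± 14.9), 22.9, 6.63 and 18.5 on RA-labelled (16.03 ± 8.43) and 148, 166 and 76.6 on Dox-labelled arrays (130.4 ± 47.5). Only the Dox-labelled arrays stood clear of all others. The difference between the labels was 2.17 ± 0.30, 4.50-fold (adjusted p = 0.000545, limma), that from d0 2.18 ± 0.30 (0.000159), and with Dox at d0 the value was 0.60 ± 0.30 (0.250), although those arrays did not overlap. A second probe set, 239309_at, gave 9.62 ± 6.60 on RA-labelled and 122 ± 27.8 on Dox-labelled arrays, a difference of 2.44 past the threshold over all probe sets. The third, 221289_at, was dim, at 8.97 ± 7.04 and 24.9 ± 16.2. DLX6-AS1, the RNA transcribed opposite DLX6 and singled out after its values were seen, read 2.43 ± 0.204 and 28.5 ± 17.4 on the same groups, 1.19 ± 0.31 (0.0178).

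DLX3, a gene of epidermis and placenta, was dim and highest on Dox-labelled arrays. It read 4.39, 10.3 and 3.0003 at d0 (5.90 ± 3.89), 7.79, 19.2 and 27.6 with Dox (18.2 ± 9.92), 21.9, 68.5 and 38.6 on RA-labelled (43.0 ± 23.6) and 108, 110.2 and 91.1 on Dox-labelled arrays (103 ± 10.6). The groups climbed in that order, the Dox-labelled one without overlap with any other. The rise from d0 was 2.46 ± 0.29 on Dox-labelled (adjusted p = 5.10e-05, limma) and 1.37 ± 0.29 on RA-labelled arrays (0.00266), and with a pseudocount of 1 these were 4.06 and 2.67. Between the labels the difference was 1.09 ± 0.29 (0.0208). It was lost without replicate 1 (0.81) or 3 (1.07) of the RA-labelled arrays, without replicate 1 (1.06) or 2 (1.04) of the Dox-labelled ones, when only these 6 arrays were fitted, and with a pseudocount of 1 (1.38). From d0 with Dox to RA-labelled arrays it was 0.75 ± 0.29 (0.0573), and passed without replicate 3 of d0 with Dox (0.95) or replicate 1 of the RA-labelled arrays (1.03), under quantile normalization (0.84) or median centring (0.87), and with the replicate number as a block (0.75).

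DLX4, its chromosomal neighbour, did not pass in any of the 6 comparisons by limma. It read 39.9, 87.4 and 72.2 at d0 (66.5 ± 24.3), 85.1, 57.9 and 84.5 with Dox (75.8 ± 15.5), 37.3, 34.7 and 50.9 on RA-labelled (41.0 ± 8.69) and 97.4, 94.4 and 54.7 on Dox-labelled arrays (82.2 ± 23.9). The RA-labelled arrays were lowest, without overlap with d0 with Dox or with the Dox-labelled arrays. The difference between the labels, 0.76 ± 0.26 (adjusted p = 0.0555), passed without replicate 1 or 2 of d0, at the same 0.76, and without replicate 3 of the Dox-labelled arrays, at 0.98. It also passed under quantile normalization (0.79), median centring (0.79) and a trended robust variance (0.76). From d0 with Dox to RA-labelled arrays it was -0.68 ± 0.26 (0.0513), which passed with the mean of the probe sets (-0.49), when only these 6 arrays were fitted, without replicate 1 or 2 of d0 or replicate 3 of the Dox-labelled arrays (all at the same -0.68), and without replicate 2 of d0 with Dox (-0.83) or replicate 3 of the RA-labelled arrays (-0.81). From d0 to RA-labelled arrays it was -0.50 ± 0.26 (0.143), which passed without replicate 1 of d0, at -0.76. A second probe set, 210259_s_at, went the other way between the labels, from 19.3 ± 9.02 to 8.74 ± 7.39, without passing.

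NGFR, which binds nerve growth factor and its relatives, was highest on Dox-labelled arrays. It read 16.3, 9.31 and 31.6 at d0 (19.1 ± 11.4), 13.5, 56.7 and 52.1 with Dox (40.8 ± 23.7), 69.7, 88.1 and 61.7 on RA-labelled (73.2 ± 13.5) and 357, 349.6 and 384 on Dox-labelled arrays (364 ± 18.2). Both day 6 groups lay above every d0 array and did not overlap each other. The rise from d0 was 3.48 ± 0.33, 11.2-fold, on Dox-labelled (adjusted p = 9.42e-06, limma) and 1.39 ± 0.33 on RA-labelled arrays (0.00518), with 2.10 ± 0.33 between the labels (0.00113). With Dox at d0 the value was 0.64 ± 0.33 (0.262), and 1.05, past the threshold, without replicate 1 of d0 with Dox. From d0 with Dox to RA-labelled arrays it was 0.75 ± 0.33 (0.0915), and 0.98, past the threshold, without replicate 2 of d0 with Dox.

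Among 9 other genes of the neurotrophin system, 3 rose with Dox at d0, where 7.75% of all genes did, with the NGFR partner LINGO1 at 0.84 ± 0.15 and the ligand gene BDNF at 0.48 ± 0.09. Between the day 6 labels 3 were higher and 1 lower on Dox-labelled arrays, where 13.7% and 12.2% of all genes were. BDNF read 468 ± 40.7 on RA-labelled and 1084 ± 14.9 on Dox-labelled arrays, 1.19 ± 0.09, and SORCS2, a co-receptor, went the same way at 0.72 ± 0.19. RTN4R, a receptor that signals with NGFR, was lower at -0.60 ± 0.16.

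**Figure D2:**
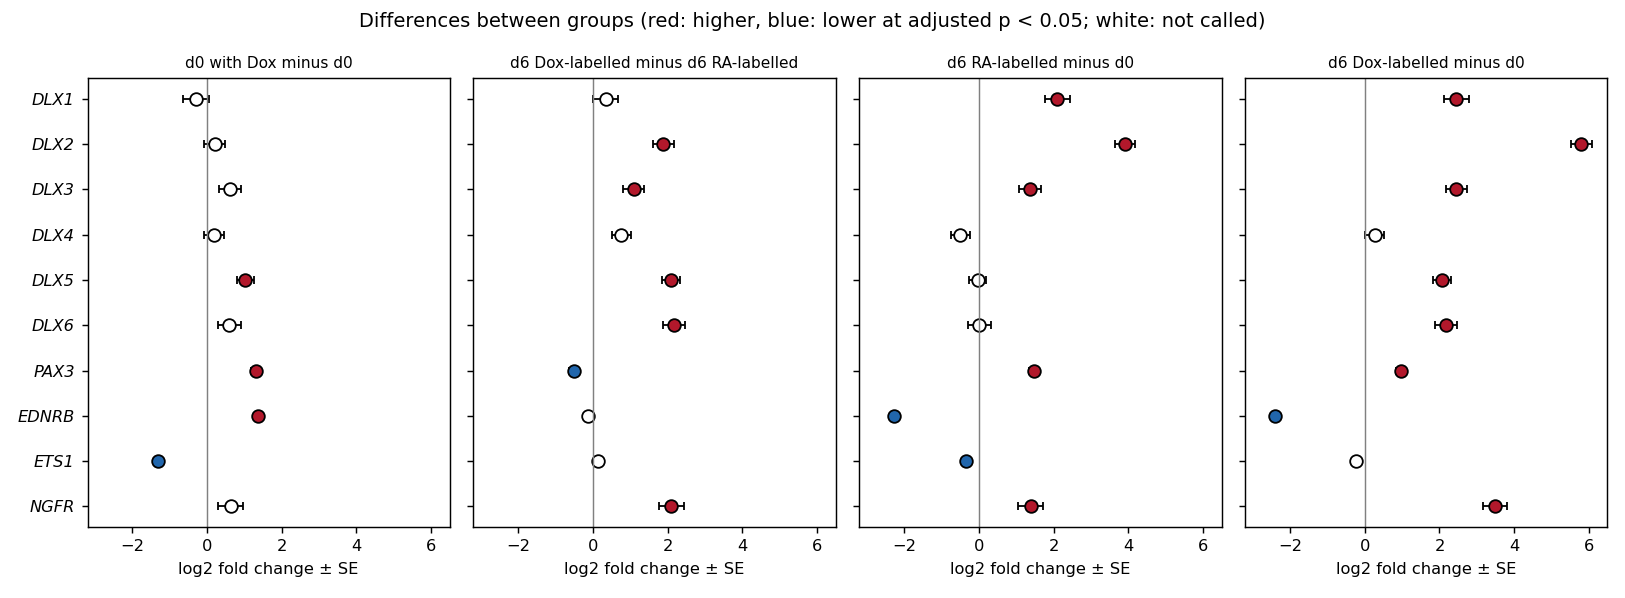
Log2 fold change of each of the 10 genes with its SE (bars) in 4 comparisons, a panel each, from limma on log2(signal + 16), with red points higher, blue points lower and white points not past an adjusted p of 0.05. Dox at d0 moved EDNRB, PAX3 and DLX5 up and ETS1 down, while the comparison of the day 6 labels had DLX6, DLX5, NGFR, DLX2 and DLX3 higher and PAX3 lower on Dox-labelled arrays.

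The 10 genes fell into several orders of level over the 4 groups. DLX3, DLX6 and NGFR had 1 step that passed the test between neighbours, the last one up to Dox-labelled arrays, and for DLX2 both the step up to RA-labelled and that up to Dox-labelled arrays passed. DLX1 had 1 step, between d0 and RA-labelled arrays, and DLX5 had 2, from d0 to d0 with Dox and on to Dox-labelled arrays. PAX3 ran d0, Dox-labelled, d0 with Dox and RA-labelled, with the last pair not apart (0.15 ± 0.12, adjusted p = 0.366 by limma). ETS1 ran from d0 with Dox up to RA-labelled, Dox-labelled and d0 arrays, with only the first step past the threshold.

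The neighbouring pairs differed from each other in these orders. DLX5 and DLX6 both stood out on Dox-labelled arrays, with RA-labelled values of 22.3 ± 12.1 and 16.03 ± 8.43 next to d0 values of 22.2 ± 7.01 and 15.1 ± 2.68. DLX1 and DLX2 were above d0 under both labels, and of them DLX2 alone passed between the labels. A test of whether 2 genes differ in their response was not made.

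**Figure D3:**
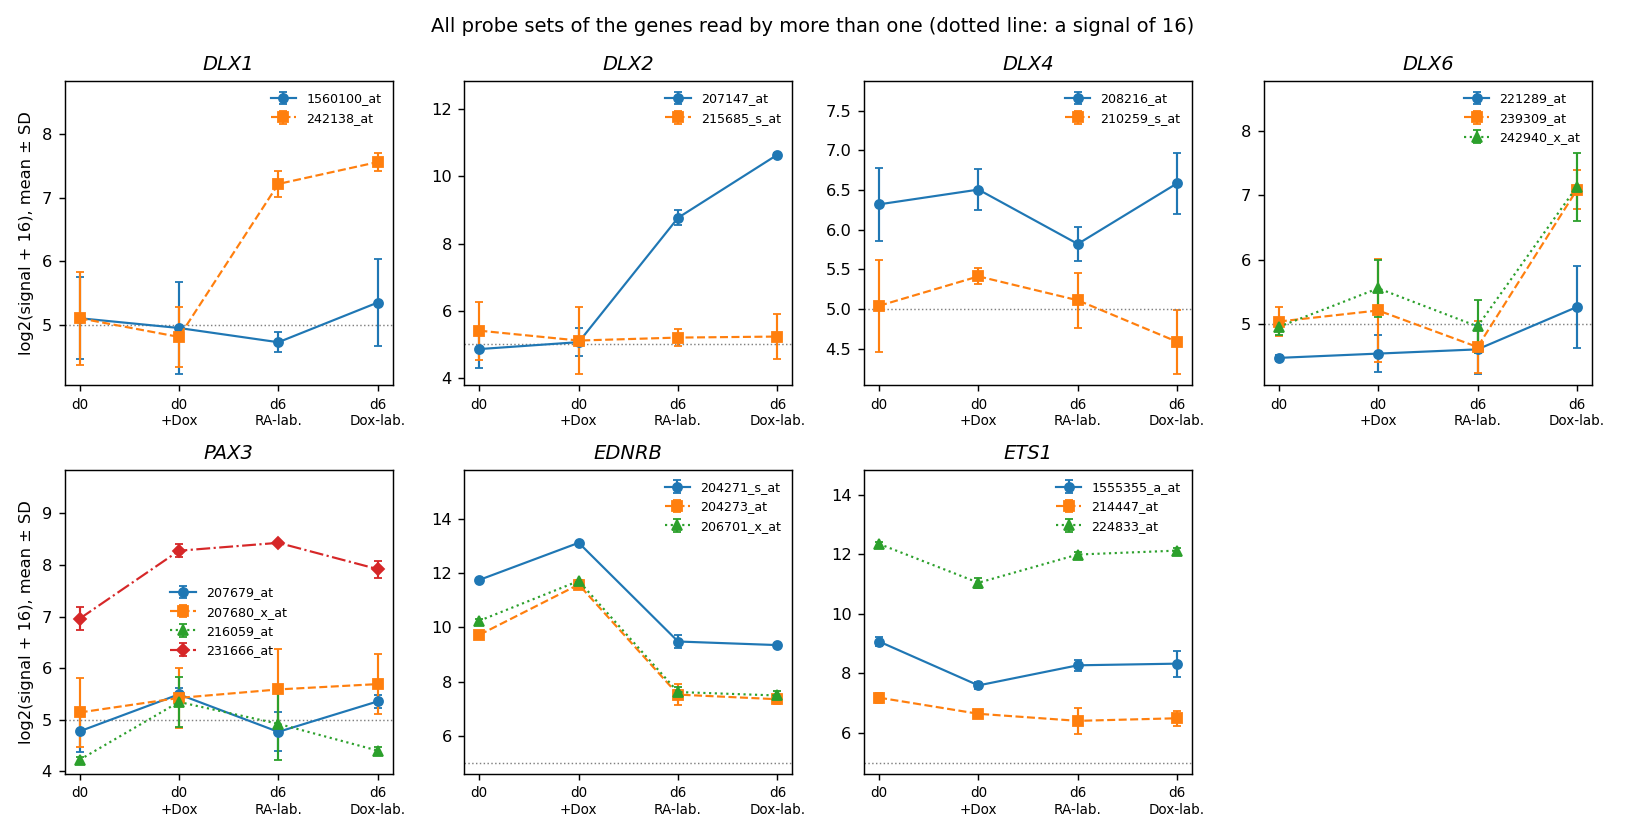
Mean ± SD of log2(signal + 16) in the 4 groups (n = 3) for each probe set of the 7 genes read by more than 1, a panel per gene and a line per probe set, with a dotted line at a signal of 16. The 3 probe sets of EDNRB move together, whereas DLX1, DLX2 and PAX3 each have a bright probe set that moves and dim ones that read near the floor.

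Over all probe sets, 5.81% passed with Dox at d0 and 15.5% between the day 6 labels. For DLX3, DLX5 and NGFR a single probe set was read, so their values have no check within the array.

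Crest genes that these 10 act with moved unevenly. For this and every later list, 7.75% of all genes were higher and 5.16% lower with Dox at d0. Between the labels 13.7% were higher and 12.2% lower on Dox-labelled arrays. Against d0, 25.3% were higher and 25.2% lower on RA-labelled arrays, and 24.6% and 23.8% on Dox-labelled arrays. Of 11 border genes, 4 rose with Dox at d0, among them GBX2 (1.87 ± 0.25) and TFAP2A (1.39 ± 0.12), with a list median of 0.18. Between the day 6 labels 5 were higher and 1 lower on Dox-labelled arrays, median 0.34. TFAP2A, a border factor, read 285 ± 11.2 at d0, 771 ± 17.9 with Dox, 409 ± 54.0 on RA-labelled and 1899.9 ± 309 on Dox-labelled arrays. MSX2, a BMP-responsive homeobox gene, went from 531 ± 61.3 on RA-labelled to 2678 ± 31.2 on Dox-labelled arrays (2.31 ± 0.14), whereas ZIC2, a neural plate gene, was lower by -1.54 ± 0.09.

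Of 19 crest specifiers, 5 rose and 1 fell with Dox at d0, with a median of 0.06. ID3 rose by 1.58 ± 0.07 and SOX5 by 1.57 ± 0.14, and MYC fell by 1.43 ± 0.11. Between the labels 10 were higher on Dox-labelled arrays and 9 did not pass, median 0.68, led by MYCN (2.45 ± 0.12) and SOX9 (2.38 ± 0.11). Against d0, 7 of the 19 were higher and 6 lower on RA-labelled arrays (median 0.04). On Dox-labelled arrays 9 were higher and 4 lower than at d0 (median 0.20). MYCN was highest in the undifferentiated cells, at 3637 ± 246, 4801 ± 218, 449 ± 57.6 and 2520 ± 323 in d0, d0 with Dox, RA-labelled and Dox-labelled arrays. SOX9 read 160 ± 18.8, 237 ± 20.2, 541 ± 39.0 and 2880.3 ± 300 in d0, d0 with Dox, RA-labelled and Dox-labelled arrays, and SNAI2, the gene of crest delamination, 160 ± 22.02, 135 ± 19.0, 2264 ± 105 and 2366 ± 122.

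SOX10, a defining marker of crest, did not pass in any comparison. It read 17.7, 112 and 119 at d0 (83.0 ± 56.6), 71.5, 79.9 and 45.3 with Dox (65.6 ± 18.1), 13.7, 42.3 and 15.4 on RA-labelled (23.8 ± 16.1) and 71.8, 52.2 and 81.3 on Dox-labelled arrays (68.4 ± 14.8). Its groups overlapped except for the 2 day 6 groups and RA-labelled against d0 with Dox, and by limma the lowest adjusted p of the 6 comparisons was 0.0813. FOXD3, which marks both pluripotent cells and early crest, went from 288 ± 31.2 at d0 to 27.1 ± 18.9 on RA-labelled and 6.54 ± 6.83 on Dox-labelled arrays. SOX10 was singled out after its values were seen.

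Genes that act with or after the DLX factors in the jaw were read by a list of their own. Of 18 arch patterning genes, 1 (GBX2) rose with Dox at d0, where 7.75% of all genes did, with a median of 0.03. On Dox-labelled arrays 3 were higher than on RA-labelled arrays, where 13.7% of all genes were, median 0.10, with MEF2C at 1.18 ± 0.25 and ALX1 at 1.04 ± 0.14. Both counts were near the share of all genes. Against d0, RUNX2, the bone-forming factor, rose to RA-labelled arrays by 3.22 ± 0.18 and to Dox-labelled arrays by 3.34 ± 0.18. GSC, a target of endothelin and DLX signals in the lower jaw, was under 16 on all 12 arrays. Of 16 genes of crest derivatives, 2 rose with Dox at d0, against 7.75% of all genes, FABP7 of glia (0.93 ± 0.15) and PMEL of pigment cells (0.75 ± 0.09). Between the labels 6 were higher on Dox-labelled arrays, against 13.7% of all genes, led by ISL1 of sensory and autonomic neurons (2.50 ± 0.16) and KIT of melanoblasts (1.43 ± 0.12). S100B and TH were under 16 on all 12 arrays. Against d0, 2 of the 16 were higher and 7 lower on RA-labelled arrays (25.3% and 25.2% of all genes), and 4 higher and 5 lower on Dox-labelled arrays (24.6% and 23.8%). KIT read 1424 ± 86.5 at d0, 138 ± 4.32 on RA-labelled and 404 ± 83.6 on Dox-labelled arrays. ISL1 was also on the list of trophoblast and amnion markers.

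BMP signals act ahead of PAX3, MSX2 and DLX5 at the border. Of 12 genes of this pathway, 4 rose and 1 fell with Dox at d0. FST, which binds activins and BMPs, rose by 2.22 ± 0.07, the ligand BMP5 by 1.67 ± 0.12, and SMAD7, an inhibitor, fell by 1.11 ± 0.07. Between the labels 6 were higher and 3 lower on Dox-labelled arrays. BAMBI, a decoy receptor, stood at 1.67 ± 0.08 and BMP2 at 1.24 ± 0.10, and the antagonist GREM1 at -4.10 and FST at -1.59.

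**Figure D4:**
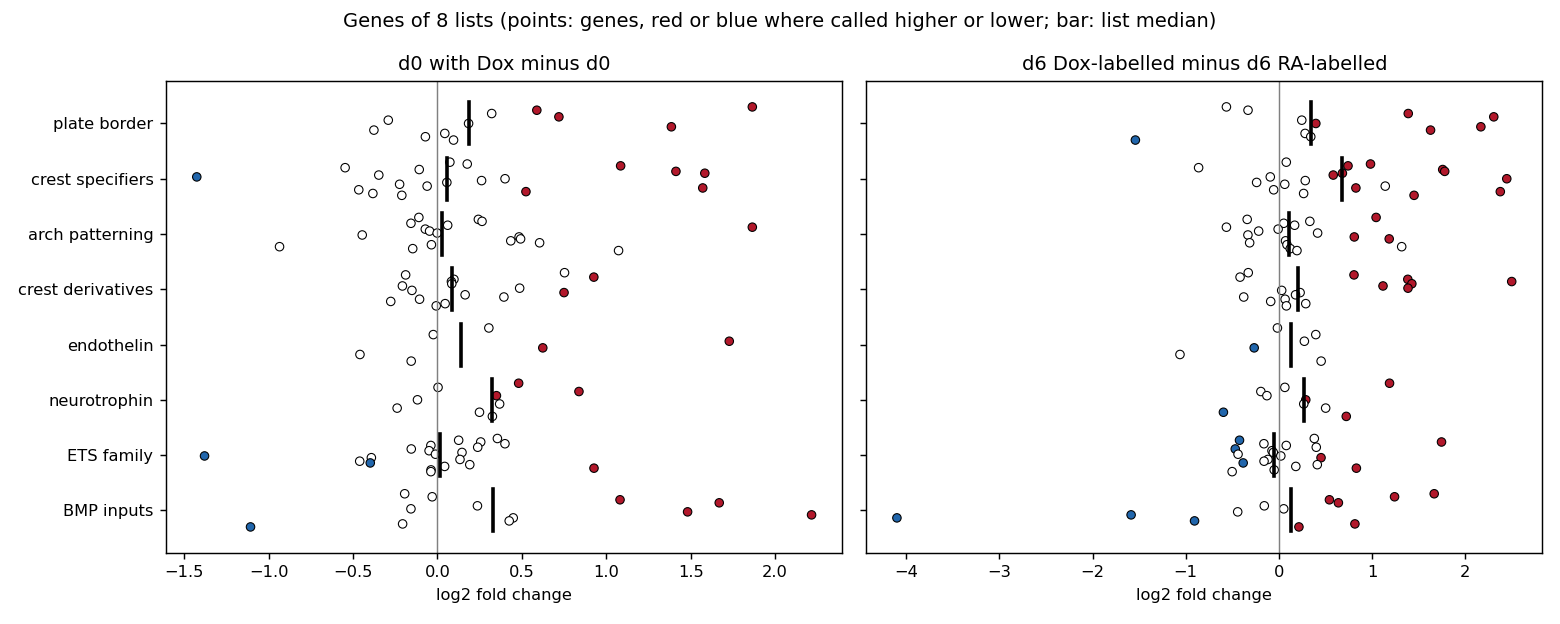
Log2 fold change of every measured gene of 8 lists with Dox at d0 (left) and for Dox-labelled minus RA-labelled arrays (right), a point per gene in red where higher, blue where lower and white where not past an adjusted p of 0.05 (limma), with a bar at each list's median. Crest specifiers show 10 of 19 genes higher on Dox-labelled than on RA-labelled arrays, where 13.7% of all genes were. The lists were chosen with earlier results of these data known, so such counts are no test of a list.

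Several of the 10 genes are also expressed outside the crest, and markers of those tissues were read beside them. For DLX3 and DLX4, markers of surface ectoderm were higher on Dox-labelled than on RA-labelled arrays in 7 of 11 genes, their summed signal going from 40025 to 43142 on RA-labelled to 75148 to 79037 on Dox-labelled arrays. At d0 it was 46562 to 50303, and with Dox 41475 to 43844. KRT18 and KRT8, singled out after their values were seen, made up most of the day 6 sums. They read 23627 ± 520 and 9775 ± 469 on RA-labelled and 34262 ± 370 and 20280 ± 240 on Dox-labelled arrays. Against d0, 3 of the 11 were higher and 5 lower on RA-labelled arrays (list median -0.32). On Dox-labelled arrays 4 were higher and 5 lower than at d0 (0.13). Markers of trophoblast and amnion, where DLX3, DLX4 and MSX2 are also found, were higher in 5 and lower in 1 of 14 (list median 0.27), with sums of 6713 to 7541 and 12822 to 13278 at day 6 and 3159 to 3612 at d0. GATA3 and KRT7, singled out after their values were seen, made up most of the day 6 sums. They read 2682 ± 140 and 1831 ± 44.3 on RA-labelled and 5428 ± 140 and 5024 ± 222 on Dox-labelled arrays. PSG1 went the other way, from 397 ± 38.2 to 25.9 ± 18.3. The part of these cells in the DLX3 and NGFR differences was not tested.

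Forebrain interneuron markers, which accompany DLX1, DLX2, DLX5 and DLX6 in the ventral forebrain, had 1 of 9 higher (DLX6-AS1) and 1 lower between the labels. Their summed signal was 565 to 640.2 on RA-labelled and 305 to 506 on Dox-labelled arrays. Within these sums GAD1 read 251 ± 34.1 and 116 ± 25.6. The means of these DLX genes were highest on Dox-labelled arrays, although DLX1 did not pass between the labels. The part of such cells in the DLX values was not tested. Endothelial markers, which accompany ETS1 and EDNRB, had 2 of 12 higher and 1 lower with Dox at d0, with sums of 2897 to 3011 without and 2693 to 3182 with Dox. Within these sums TEK went up from 355 ± 40.9 to 1165 ± 170 and KDR down from 1969 ± 68.9 to 1075 ± 109. The part of such cells in the ETS1 and EDNRB values was not tested. Of the markers of paraxial mesoderm, another site of PAX3, MEOX2 and LBX1 were under 16 on all 12 arrays, and the sums were 355 to 492 at d0, 349 to 468 with Dox, 1789 to 2003 on RA-labelled and 2285 to 2363 on Dox-labelled arrays. Against d0, 1 of 9 was higher on RA-labelled arrays (list median -0.063) and 2 of 9 on Dox-labelled arrays (-0.013). Most of the day 6 sums was FOXC2, at 1662 ± 111 and 1927 ± 38.7, singled out after its values were seen, and the part of such cells in the PAX3 values was not tested. Of dorsal neural tube markers, WNT1 and ATOH1 were under 16 on all arrays, and the sums were 535 to 612 at d0, 556 to 645 with Dox, 684 to 767 on RA-labelled and 1290.2 to 1513 on Dox-labelled arrays. Between the labels, 2 of 11 of them were higher and 2 lower (list median 0.25). MSX1, also a border gene and singled out after its values were seen, made up most of the sums on Dox-labelled arrays. It read 368 ± 32.1 on RA-labelled and 990 ± 105 on Dox-labelled arrays. Placode markers, which share DLX5 and PAX3, had 3 of 10 higher with Dox at d0, their sums going from 4035 to 4178 up to 6018 to 6503. At day 6 the sums were 1347 to 1583 on RA-labelled and 1446 to 1669.5 on Dox-labelled arrays. OTX2, singled out after its values were seen and also a gene of pluripotent cells and forebrain, made up most of the d0 sums, at 2526 ± 87.8 without and 4472 ± 159.9 with Dox. The part of such cells in the PAX3 and DLX5 rises was not tested.

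The genes most like 4 of the members were taken by the smallest root mean square difference of centred log2 group means over the 4 groups, among 10958 genes. For EDNRB these were MIAT (0.229) and SLC38A4 (0.285), for ETS1 CAVIN3 (0.0972) and SKIL (0.107), for PAX3 TMEM169 (0.135) and SELENOP (0.147), and for DLX5 DPYSL5 (0.149) and ID2 (0.226). MIAT, a long noncoding RNA, read 519 ± 66.7, 1220 ± 144, 117 ± 43.9 and 67.5 ± 43.7 in d0, d0 with Dox, RA-labelled and Dox-labelled arrays. ID2, a BMP-responsive inhibitor of helix-loop-helix factors, read 2078 ± 51.1, 5560 ± 257, 2144 ± 302 and 7359 ± 474. With only 4 group means per gene, such likeness describes these arrays.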

How the data were processed

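Total RNA (TRIzol, per the labels) was read on 12 arrays. The deposited table holds linear intensities per probe set; the authors' background correction, summary and scaling were not given in the sources used here. Their mean without the lowest and highest 2% was 500 on each array (499.9), so signals are relative to their array. Of 54675 probe sets, 41097 had a single symbol, 1801 several and 11777 were not listed; symbols were updated through RefSeq (GRCh38.p14) for 41043. Each of 19775 genes was read from its brightest single-symbol probe set. A pseudocount of 16 was added before taking log2 of the deposited intensities, which understates changes of dim genes (23.1% to 26.5% of probe sets per array were under 16), and group means of all 12 arrays were fitted with limma 3.58.1 in R 4.3.3 (lmFit, eBayes). Probe sets were also fitted over the whole table. No filter on dim genes was applied. The fit was checked on simulated data. The members and gene lists were chosen with earlier results of these data known. Genes named beyond the members are the 2 largest rises and falls of a list past the threshold, unless said otherwise. Alternatives were quantile normalization, median centring, a pseudocount of 1, a filter on dim genes, averaging a gene's probe sets, a trended robust variance, the 6 arrays of a comparison, the replicate block and leaving out each array. Scan dates and batches were not analysed here.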

Additional observations from a re-analysis of the deposited data

How the results depend on the processing

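Of 438 values of single genes under the alternatives that keep all arrays, 407 kept their direction and their side of the threshold, 11 passed newly, 12 no longer passed and 8 changed sign. Of 720 with an array left out, 679 kept both, 14 passed newly, 16 no longer passed and 11 changed sign. With the mean of all probe sets, the sign changed for DLX2 with Dox at d0 (-0.044), DLX4 on Dox-labelled arrays against d0 (-0.094) and against d0 with Dox (-0.37, past the threshold), DLX6 on RA-labelled arrays against d0 (-0.085) and PAX3 on RA-labelled arrays against d0 with Dox (-0.21). DLX5 on RA-labelled arrays against d0 was 0.053 under quantile normalization and 0.054 under median centring, and DLX6 there was -0.064 with a pseudocount of 1. Leaving out an array, values crossed 0 for DLX1 (-0.60 to 0.11) and DLX4 (-0.071 to 0.37) with Dox at d0, DLX4 on Dox-labelled arrays against d0 with Dox (-0.070 to 0.30), and DLX5 (-0.20 to 0.26) and DLX6 (-0.15 to 0.24) on RA-labelled arrays against d0. None of these was called with all arrays and the brightest probe set. The counts of genes called moved by over 1.5 times under the filter at the median mean, which keeps only EDNRB, ETS1 and PAX3: 1 between the day 6 labels, 3 for RA-labelled and 3 for Dox-labelled arrays against d0, and 3 and 2 for Dox-labelled and RA-labelled arrays against d0 with Dox. In the same order, 4932, 7808, 7529, 7181 and 7599 of all 9888 genes kept by the filter passed. With an array left out the counts ran from 3 to 4 with Dox at d0, 4 to 7 between the labels, 7 to 8 and 8 to 9 for RA-labelled and Dox-labelled arrays against d0, and 8 to 9 and 5 to 7 for Dox-labelled and RA-labelled arrays against d0 with Dox. Over all 19775 genes these ran, in that order, from 1786 to 2446, 4043 to 5216, 9272 to 9900, 8857 to 9545, 8296 to 9198 and 8857 to 9562.

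With the replicate number as a block the counts were 4 with Dox at d0, 6 between the labels, 7 and 8 for RA-labelled and Dox-labelled arrays against d0, and 8 and 6 for Dox-labelled and RA-labelled arrays against d0 with Dox, where without the block they were 9 and 5: PAX3 was lost (-0.36) in the first and DLX3 gained (0.75) in the second of these. Over all 19775 genes the counts with the block were, in that order, 2296, 4901, 9916, 9499, 8987 and 9450. Same-numbered replicates did not deviate together, at r = -0.00843 to 0.0483 over 18 pairs, so the numbers were not taken as pairs. Over all genes, 2552 passed with Dox at d0, and 1522 when only those 6 arrays were fitted. Median centring raised the median of all genes by 0.12, 0.14 and 0.11 for Dox-labelled arrays against d0 and against d0 with Dox and RA-labelled arrays against d0 with Dox, and turned 4392 higher and 4728 lower genes into 5407 and 3606 in the second of these. Signals near 16, as of DLX1, DLX2, DLX3, DLX5, DLX6 and NGFR at d0 and of DLX5 and DLX6 on RA-labelled arrays, limit those genes: the size of their changes depends on the pseudocount.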
